A study of Mus musculus with 11 samples.

Results

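The genes of prostaglandin synthesis and response were followed through the cell types of the chronically injured mouse kidney. They are 9 of the 28692 genes in the count tables, taken by symbol: the cyclooxygenases Ptgs1 and Ptgs2, the terminal synthases Ptges, Ptgds and Ptgis, the prostaglandin E2 receptors Ptger1, Ptger3 and Ptger4, and the degrading enzyme Hpgd. All 9 were found. Whole-kidney cell suspensions had been run on the 10x Chromium, a droplet platform that reads the 3' ends of transcripts and counts molecules by unique molecular identifiers (UMIs), giving 11 libraries. Control libraries (n = 5) came from naive mice. In unilateral ischemia-reperfusion (UIR, n = 3) the pedicle of the left kidney had been clamped for 30 min, in unilateral ureteral obstruction (UUO, n = 3) the left ureter had been tied off for good, and the injured kidney was taken at day 28. The operated mice were male C57Bl/6, 10 weeks old at surgery, and the controls matched them in age, strain and sex. Each model was compared with Control, and UUO with UIR, to ask what each type of injury does to these genes in each cell type.

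Prostaglandins are made in 2 steps. A cyclooxygenase turns arachidonic acid into prostaglandin H2, Ptgs1 in many cells all the time and Ptgs2 mostly where it has been induced, and a terminal synthase then makes the active product, prostaglandin E2 by Ptges, D2 by Ptgds and prostacyclin by Ptgis. In the kidney, prostaglandin E2 is best known for its actions on salt and water transport in the thick ascending limb of the loop of Henle and in the collecting duct, through receptors that differ in the signal they pass on: Ptger1 (EP1) raises calcium, Ptger3 (EP3) lowers cyclic AMP and Ptger4 (EP4) raises it. Hpgd ends the signal by oxidising prostaglandins inside the cell.

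In all, 40587 cells were kept, with 1859 to 2521 cells per Control, 4012 to 7442 per UIR and 3799 to 5283 per UUO library and a median of 2406 to 5079 UMIs per cell. No pair of libraries shared more than 18 barcodes. In the Control libraries 57.0 to 78.8% of called barcodes were over the mitochondrial limit of 30% and were left out, against 23.9 to 37.3% in UIR and 3.15 to 7.97% in UUO. Cells were clustered without the 9 genes and named from fixed markers, so each class name stands for cells like that type: proximal tubule (PT), thin limb, loop of Henle (LOH), connecting tubule (CNT), principal (CD-P) and intercalated (CD-I) cells of the collecting duct, failed repair tubular cells (frTEC), podocytes (Podo), endothelium (Endo, with glomerular, capillary and arterial cells), 3 fibroblast classes (Fibro 1, Fibro 2 and Fibro 3), macrophages (Macro), monocytes (Mono), dendritic cells (Clec10a/Ccr7 DC and cDC1), neutrophils (Neutro), B cells and T/NK cells. Distal clusters with high Slc12a3, the salt transporter of the distal tubule, were pooled as Slc12a3-high, and an injury cluster led by Spp1, Psca and Muc1 as Psca-high. The Psca-high cluster scored highest for the LOH markers and next for those of urothelium, and Cldn19 was also among its leading genes. At a clustering resolution of 2, clusters with similar leading genes were named LOH or frTEC or stayed unnamed. Psca-high is thus not shown to be a cell type apart from LOH. Each class had UMIs of all its markers in every group in which it was pooled, except Sptssb, which was at 0 in Control thin limb. Clusters that stayed unnamed took up 1.98% of the Control cells, 12.8% of those of UIR and 6.57% of those of UUO. UMIs were summed over the cells of a class in each library with at least 20 of them, and a level is given in CPM, the UMIs of a gene per 1000000 UMIs of that class and library. Levels stand in the order Ctrl, N1, N2, AN1, AN2 for Control, and UIR, UIR1, UIR2 or UUO, UUO1, UUO2 for the models.

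In the Control kidney the 9 genes were found mostly in a few classes or spread over several. CD-P cells held 45.5% of all Ptgs1 UMIs and 79.0% of Ptger1 UMIs, CNT cells 40.9% of Ptges, LOH cells 64.4% of Ptger3, macrophages 58.4% of Hpgd and endothelium 65.1% of the few Ptgs2 UMIs. Fibro 2 cells, 25 in all Control libraries together, held 82.4% of the Ptgis UMIs. Ptger4 was spread over podocytes (28.7%), Fibro 3 (21.6%) and other classes, and Ptgds, with 184 UMIs in 5 Control libraries, over podocytes, PT and distal cells. These shares follow the number of cells as well as the level per cell.

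**Figure D1:**
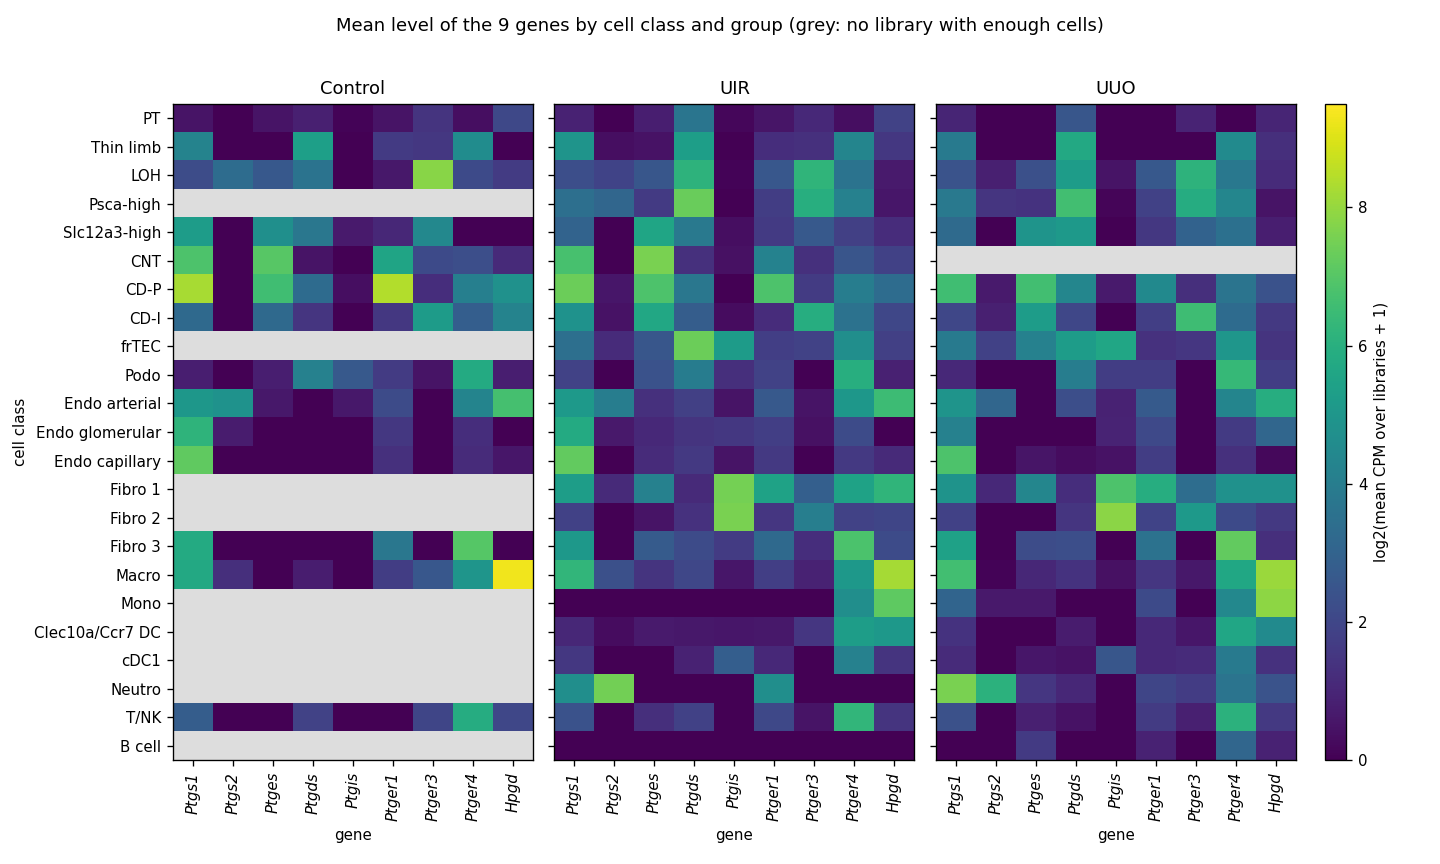
Mean level of each of the 9 genes (columns) by cell class (rows) in Control, UIR and UUO (panels), as log2(CPM + 1) of the mean over libraries, with grey where no library held enough cells of the class. In Control Ptgs1 and Ptger1 stand out in CD-P, Ptger3 in LOH and Hpgd in Macro, and in both models Ptgis in Fibro 1 and Fibro 2.

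In each model more of the tests that passed were lower than higher. Counted over the classes with enough cells, and with glomerular, capillary and arterial cells counted only as part of Endo, 12 of 37 tests of a gene in a class passed in UIR against Control (3 higher, 9 lower), where 11.8% of the tests of all genes in these classes passed. In UUO against Control 14 of 34 passed (5 higher, 9 lower, background 14.9%), and in UUO against UIR 5 of 54 (0 higher, 5 lower, background 1.16%). The last count was 11 without library UIR and 3 without UIR1, UIR2 or UUO2. A test passed at an adjusted p under 0.05 in edgeR's quasi-likelihood test over libraries. The fraction of all genes that passed differed widely between classes, from 0% to 41.4%, so each class is given beside its own background. Both models were compared with the same 5 Control libraries. The 9 lower tests were of Hpgd, Ptger1, Ptger3 and Ptgs1 in UIR, and of these genes and Ptgs2 in UUO. Over all genes that passed in UIR the split varied by class: 1508 higher and 1557 lower in LOH, 440 and 259 in PT, and 310 and 438 in CNT. Where none of the 9 genes passed in a class, endothelial subtypes included, the background was 0 to 7.49% in UIR (8 classes), 0.165 to 8.66% in UUO (6 classes) and 0 to 4.3% in UUO against UIR (15 classes).

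**Figure D2:**
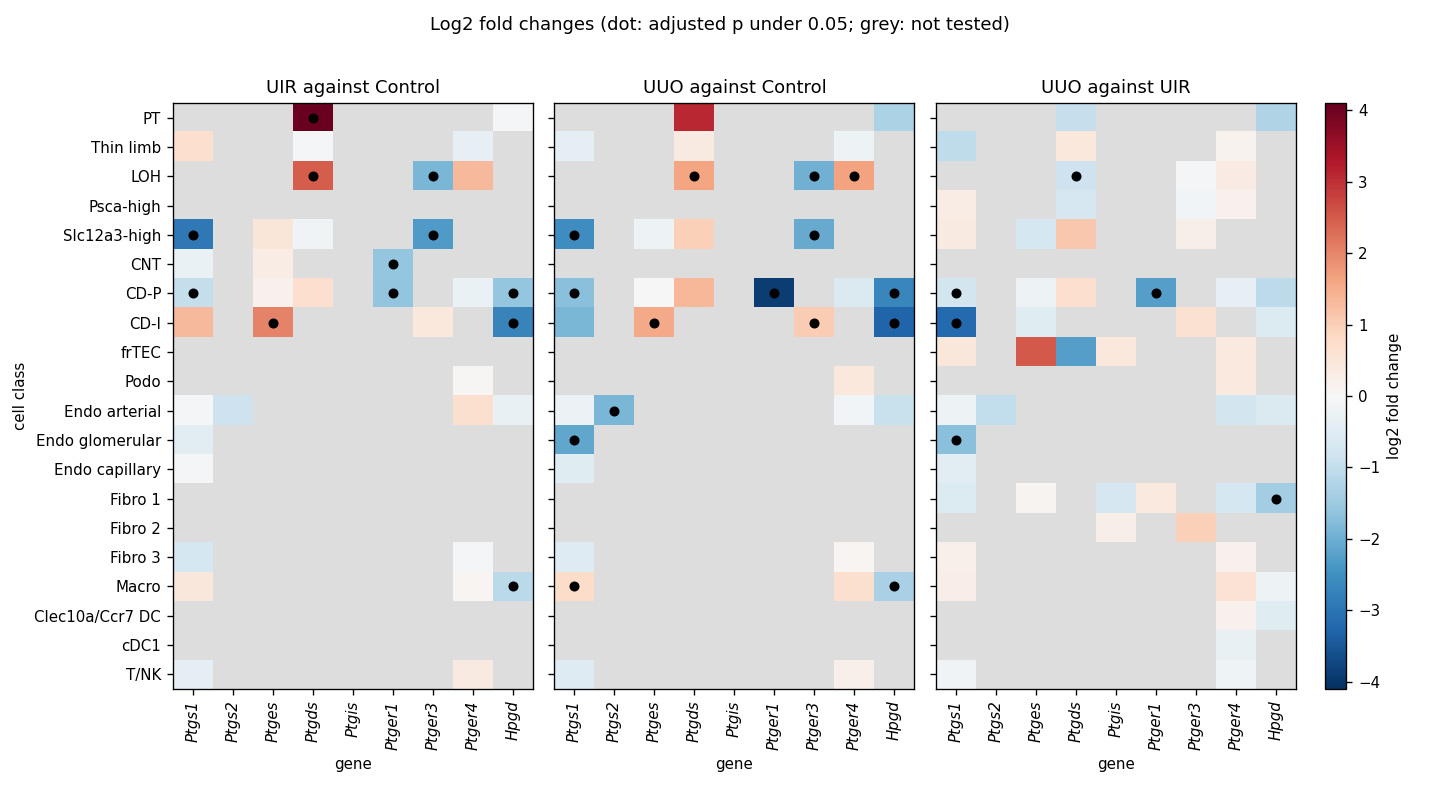
Log2 fold changes of the 9 genes (columns) by cell class (rows, endothelium by subtype only) in UIR against Control, UUO against Control and UUO against UIR, with a dot where the adjusted p was under 0.05 and grey where the gene was not tested. The falls of Ptgs1, Ptger1 and Hpgd in CD-P and of Ptger3 in LOH are present in both models, and Ptgds in LOH is higher in both.

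In the principal cells of the collecting duct both the first enzyme of the pathway and a receptor fell. In CD-P 6 of the 9 genes could be tested. In each model 3 of them fell and none rose, Ptgs1, Ptger1 and Hpgd, against backgrounds of 12.7% in UIR and 25.7% in UUO, and 2 of the 6 were lower still in UUO than in UIR (background 2.15%). The median log2 fold change of the 6 was -0.61 in UIR and -1.15 in UUO, beside 0.0041 and 0.016 over all genes tested.

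Ptgs1, the constitutive cyclooxygenase, stood at 288, 323, 279, 338 and 315 CPM in the Control CD-P libraries. It was at 125, 170.2 and 201 CPM in UIR and at 97.8, 111 and 79.6 CPM in UUO. Every Control library lay above every UIR library, and every UIR library above every UUO library. Ptgs1 thus fell from 309 ± 24.1 CPM (SD, n = 5) to 165 ± 38.2 CPM (SD, n = 3) in UIR (log2 fold change -0.97, SE 0.16, edgeR adjusted p = 4.54e-04) and to 96.02 ± 15.6 CPM (SD, n = 3) in UUO (log2 fold change -1.71, SE 0.17, edgeR adjusted p = 7.51e-07). UUO was also below UIR (log2 fold change -0.74, SE 0.19, edgeR adjusted p = 0.0442), a difference that did not pass under 15 of its 25 alternative settings, among them leaving out any 1 library other than Ctrl or UIR (edgeR adjusted p = 0.054 to 0.23).

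Ptger1, the calcium-linked EP1 receptor, was measured at 261, 439, 273, 342 and 379.6 CPM in Control CD-P cells. The UIR libraries held 65.4, 171 and 109 CPM and the UUO libraries 13.6, 32.1 and 19.9 CPM. The 3 groups did not overlap, and the lowest Control library was above the highest UIR library. The fall was from 339 ± 74.6 to 115 ± 53.03 CPM in UIR (log2 fold change -1.62, SE 0.26, edgeR adjusted p = 3.55e-04) and to 21.9 ± 9.41 CPM in UUO (log2 fold change -3.88, SE 0.33, edgeR adjusted p = 7.96e-08), with UUO below UIR (log2 fold change -2.26, SE 0.35, edgeR adjusted p = 0.00132). The last difference did not pass with a mitochondrial limit of 15% (log2 fold change -2.32, edgeR adjusted p = 0.060). One CD-P cluster had Ptger1 among its leading genes although clustered without it. That cluster held 102 Control, 12 UIR and 1 UUO cells, and its part in the fall was not tested.

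Hpgd, the prostaglandin-oxidising enzyme, was low in the same cells, at 33.1, 20.2, 27.6, 31.5 and 21.1 CPM in Control. It was at 6.54, 13.6 and 7.59 CPM in UIR and 9.51, 3.32 and 0 CPM in UUO, from 76 UMIs in Control, 35 in UIR and 13 in UUO. Again no injured library reached a Control library. Hpgd fell in UIR (log2 fold change -1.597, SE 0.398, edgeR adjusted p = 0.0108) and in UUO (log2 fold change -2.68, SE 0.49, edgeR adjusted p = 3.63e-04). The UIR call was lost with only N1 and N2 (edgeR adjusted p = 0.31) or only AN1 and AN2 as controls (0.12) and without library UIR or UIR2 (edgeR adjusted p = 0.066 and 0.067). Free RNA could have added at most 0.644 CPM of Hpgd in a UIR and 0.442 CPM in a UUO library.

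Ptges, which makes prostaglandin E2, overlapped between the groups. In CD-P it was at 163, 78.5, 93.2, 68.6 and 74.6 CPM in Control, 106, 139 and 95.6 CPM in UIR and 121, 102 and 66.95 CPM in UUO. Neither difference passed (log2 fold change 0.18, SE 0.24, edgeR adjusted p = 0.737 in UIR and log2 fold change -0.02, SE 0.26, edgeR adjusted p = 0.978 in UUO). Ptgs2 was not tested in CD-P because its counts were too low.

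**Figure D3:**
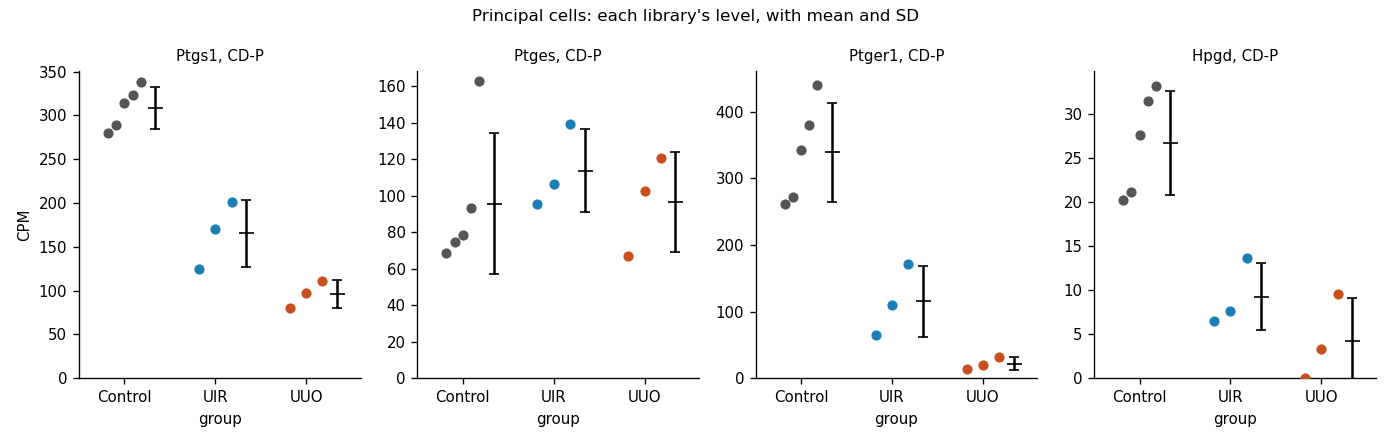
Levels of Ptgs1, Ptges, Ptger1 and Hpgd in CD-P cells in CPM on linear axes, with 1 dot per library ordered by level, a short line at the group mean and the SD over libraries as the error bar, which stops at 0. Ptgs1 and Ptger1 step down from Control through UIR to UUO without overlap, Hpgd is lower in both models, and Ptges overlaps between the groups.

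The CD-P class itself differed between the groups. Its 5 defining markers, Fxyd4, Aqp2, Aqp3, Hsd11b2 and Scnn1g, were present in every group, and their summed level was 17758 to 26539 CPM in Control, 8624 to 10628 CPM in UIR and 3272 to 5798 CPM in UUO. The summed level of the 6 frTEC markers, in the same order of groups, was 725 to 1038, 1692 to 3101 and 3319.5 to 5823 CPM. Different clusters filled the class. The 2 largest in Control held 51.99% and 46.1% of its UMIs, and the first of these held 43.6% in UIR. By cells, these 2 held 117 and 102 of 223 in Control and 140 and 12 of 291 in UIR. In UUO they held 13 and 1 of 192 cells. A cluster that was not among them held 37.7% of the UMIs in UIR and 41.9% in UUO. In UUO other clusters held 37.7% and 13.0%. The median mitochondrial share per cell was 16.5 to 19.1% in Control, 12.03 to 15.02% in UIR and 10.8 to 12.8% in UUO. The part of these differences in the results for CD-P was not tested.

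The promoter windows of Ptgs1 and Hpgd, which fell together in CD-P, are shown with that of Ptgs2, the second cyclooxygenase, which had too few counts there for a test. Each runs from 250 bases before to 50 bases after the RefSeq start on build GRCm38.p6, and all 3 are on the plus strand: Ptgs1 at chr2:36230176-36230475, Ptgs2 at chr1:150099781-150100080 and Hpgd at chr8:56294302-56294601. Capitals mark matches to 3 motifs searched on both strands, the TATA box TATAAA, the cyclic AMP response half-site form ACGTCA and the E-box CACGTG.
Ptgs1: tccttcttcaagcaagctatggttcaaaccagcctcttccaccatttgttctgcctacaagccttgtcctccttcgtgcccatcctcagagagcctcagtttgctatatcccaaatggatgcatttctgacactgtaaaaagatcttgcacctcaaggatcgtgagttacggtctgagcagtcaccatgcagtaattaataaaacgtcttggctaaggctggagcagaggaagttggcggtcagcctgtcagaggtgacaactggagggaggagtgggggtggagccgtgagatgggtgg
Ptgs2: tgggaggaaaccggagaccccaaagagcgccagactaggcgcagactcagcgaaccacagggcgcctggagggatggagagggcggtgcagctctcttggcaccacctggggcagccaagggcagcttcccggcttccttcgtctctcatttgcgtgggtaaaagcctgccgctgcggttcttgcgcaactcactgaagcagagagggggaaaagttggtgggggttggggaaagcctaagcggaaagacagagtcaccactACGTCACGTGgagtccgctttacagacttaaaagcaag
Hpgd: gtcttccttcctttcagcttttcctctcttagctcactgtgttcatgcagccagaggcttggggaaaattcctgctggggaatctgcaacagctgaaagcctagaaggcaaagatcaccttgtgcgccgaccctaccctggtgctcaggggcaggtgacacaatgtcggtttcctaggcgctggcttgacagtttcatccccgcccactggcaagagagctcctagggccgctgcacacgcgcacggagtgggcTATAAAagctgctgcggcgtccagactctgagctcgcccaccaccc
The Hpgd window held TATAAA at bases 255 to 260, and the Ptgs2 window held ACGTCA at bases 263 to 268, overlapping CACGTG at bases 267 to 272. The Ptgs1 window held none of the 3. TATAAA was found in 13.6% of 32851 promoter windows of this length, ACGTCA in 7.51% and CACGTG in 7.15%. In the annotation used for the files Ptgs1 (ENSMUSG00000047250) spans chr2:36230426-36252272, Ptgs2 (ENSMUSG00000032487) chr1:150100031-150108227 and Hpgd (ENSMUSG00000031613) chr8:56294585-56321043, so the annotated Hpgd start lies downstream of the TATAAA match.

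Outside CD-P, Ptgs1 fell in Slc12a3-high cells in both models and in glomerular endothelium in UUO, rose in macrophages in UUO, and passed no other test against Control. In the order of Control levels CD-P, at 309 CPM, was followed by capillary endothelium (142 ± 31.3 CPM), CNT (113 ± 25.5), glomerular endothelium (71.8 ± 15.1), Fibro 3 (55.1 ± 9.29, n = 2), macrophages (52.5 ± 18.97) and Slc12a3-high cells (37.6 ± 10.8). CD-P did not overlap the class after it, whereas every later pair of neighbours in that order did overlap. In UUO the highest level was in neutrophils (207, 156 and 215 CPM), which had no Control pool, and CD-P came after capillary endothelium and macrophages with overlapping ranges.

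In glomerular endothelium (Endo glomerular) Ptgs1 fell in UUO. Its Control libraries held 78.4, 58.8, 72.9, 92.96 and 55.9 CPM, the UIR libraries 49.6, 65.04 and 51.8 CPM and the UUO libraries 16.3, 19.3 and 15.02 CPM. Each UUO library was below every other library, while UIR and Control overlapped. UUO differed from Control (log2 fold change -2.13, SE 0.27, edgeR adjusted p = 6.83e-07, background 8.58%) and from UIR (log2 fold change -1.71, SE 0.28, edgeR adjusted p = 1.84e-04, background 1.66%), although at a clustering resolution of 2 the former was -1.20 on the log2 scale (edgeR adjusted p = 1.6e-04) and the latter did not pass (log2 fold change -0.74, edgeR adjusted p = 0.064). The summed general endothelial markers of the class overlapped, at 11973 to 13503 CPM in Control and 11491 to 12420.0 CPM in UUO, and the podocyte markers in it were at 1041 to 1234 CPM in Control and 540.5 to 679 CPM in UUO. Different clusters filled the class: one held 215 of its 231 Control cells and 45 of its 380 UUO cells, and the other 16 and 335. The part of cluster and podocyte signal in the result was not tested.

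In capillary endothelium no change of Ptgs1 passed. Its Ptgs1 level was 183, 113, 164, 140.4 and 111 CPM in Control, 153, 132 and 156 CPM in UIR and 106, 141 and 98.1 CPM in UUO, and the groups overlapped (log2 fold change -0.48, SE 0.19, edgeR adjusted p = 0.128 in UUO). One cluster held 348 of the 745 UUO capillary cells and 1 of the 215 in Control. Its leading genes held Gpihbp1 and Cd300lg, capillary markers by the fixed list, and the glomerular marker Ehd3. Yet Cd300lg, Ehd3, Kdr and Emcn were leading genes of both clusters named glomerular as well, and Gpihbp1 of 1 of them. With the other capillary clusters it shared only Fabp4 among the leading genes. At a clustering resolution of 2 a cluster with much the same leading genes and 380 UUO cells was named glomerular. The border between the subtypes in UUO thus rests on the resolution, and whether they differed in their response was not tested.

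In Slc12a3-high cells Ptgs1 fell in both models. The 5 Control libraries were at 54.04, 31.9, 38.3, 24.7 and 38.8 CPM, UIR at 4.81, 13.4 and 2.94 CPM and UUO at 5.45, 10.8 and 9.71 CPM, without overlap (log2 fold change -2.92, SE 0.35, edgeR adjusted p = 1.58e-07 in UIR and log2 fold change -2.55, SE 0.35, edgeR adjusted p = 9.37e-07 in UUO). The background was high, 34.2% and 41.4% of all genes tested. One cluster held 99.5% of the Control UMIs of this class and other clusters held the injured ones, and the summed distal tubule markers Slc12a3, Pvalb and Trpm6 were at 3441 to 5657 CPM in Control, 1354 to 2089 CPM in UIR and 425 to 710.0 CPM in UUO. The part of this difference in makeup was not tested.

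CNT cells, next to the collecting duct, held Ptgs1 at 149, 80.9, 126, 102 and 109.8 CPM in Control and 137, 94.8 and 85.7 CPM in UIR, which did not differ beyond their spread (log2 fold change -0.26, SE 0.18, edgeR adjusted p = 0.403). UUO left 19 CNT cells and no level. Ptger1 fell in these cells, from 33.9, 41.8, 53.5, 33.8 and 64.98 CPM in Control to 12.7, 18.95 and 20.8 CPM in UIR (log2 fold change -1.596, SE 0.31, edgeR adjusted p = 2.39e-04, background 12.9%). No UIR library reached the lowest Control library. One cluster held 50.3% of the UIR and 0.904% of the Control UMIs of CNT, and the median mitochondrial share was 16.1 to 25.7% in Control and 12.4 to 17.5% in UIR, whose part was not tested. With a mitochondrial limit of 50% the Ptger1 difference was -0.75 on the log2 scale and did not pass (edgeR adjusted p = 0.087).

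Macrophages were the class in which Ptgs1 rose. The Control libraries were at 73.5, 35.1, 44.4, 37.1 and 72.3 CPM, UIR at 87.5, 74.3 and 65.9 CPM and UUO at 92.5, 90.999 and 107 CPM. Every UUO library was above every Control library, and UIR overlapped Control. Ptgs1 rose in UUO (log2 fold change 0.75, SE 0.198, edgeR adjusted p = 0.0171, background 9.71%), and the UIR difference did not pass (log2 fold change 0.48, SE 0.203, edgeR adjusted p = 0.191). The UUO call was lost with a mitochondrial limit of 15% (edgeR adjusted p = 0.089), with AN1 and AN2 as the only controls (0.19), and without N1 (0.055) or AN1 (0.054). One cluster held 82.4% of the macrophage UMIs in Control and 29.2% in UUO. The median was 2774 to 3667 UMIs per cell in Control and 999.5 to 1500.0 in UUO, with mitochondrial shares of 7.18 to 16.3% and 5.23 to 7.45%, and their part in the Ptgs1 rise was not tested. Macrophages numbered 403 in Control, 3860 in UIR and 4367 in UUO, and they held 42.5% of all Ptgs1 UMIs of the UUO libraries, CD-P 9.402%.

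In CD-I cells Ptgs1 was near the lower end of what could be measured in Control (7.33, 0, 5.98, 22.3 and 6.31 CPM, 8 UMIs). UIR held 10.4, 27.5 and 44.8 CPM and UUO 4.03, 3.77 and 1.55 CPM, and UUO was below UIR (log2 fold change -3.202, SE 0.52, edgeR adjusted p = 0.00155, background 0.861%). The class was made of a cluster with a median of 15262 UMIs per cell and one with 1371.5. Another cluster, led by Slc26a4 and with a median of 28240 UMIs (53 Control, 103 UIR and 8 UUO cells), scored highest for CD-I but also for CD-P, stayed without a name and is not in CD-I. At a clustering resolution of 2 an Slc26a4 cluster was in CD-I and one led by Aqp6 and Slc4a1 was left out, so the class holds only part of the cells with intercalated markers. The deeper of its clusters held 41 of the 180 cells in Control, 212 of 403 in UIR and 163 of 195 in UUO, and 68.8%, 92.4% and 98.2% of the UMIs of CD-I. The part of this shift in any CD-I result was not tested. With predicted doublets kept the Ptgs1 difference was -0.67 and did not pass (edgeR adjusted p = 0.38). The summed CD-P markers in these CD-I pools were 38.4 to 372 CPM in Control, 617 to 1546 CPM in UIR and 265 to 670.2 CPM in UUO. Their part was not tested.

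Ptgs2, the inducible cyclooxygenase, was scarce, with 63 UMIs in the Control, 193 in the UIR and 119 in the UUO libraries. Arterial endothelium held the highest Control level, 48.4, 9.73, 41.6, 14.8 and 22.9 CPM, and the UIR libraries held 11.3, 11.02 and 24.2 CPM and UUO 4.03, 12.8 and 6.28 CPM. The UUO libraries overlapped Control at the low end. The difference passed (log2 fold change -1.87, SE 0.49, edgeR adjusted p = 0.0204, background 4.63%) but was lost with only N1 and N2 (edgeR adjusted p = 0.44) or only AN1 and AN2 as controls (0.41) and without Ctrl (0.20), UUO (0.087) or UUO2 (0.082). Over the whole endothelium Ptgs2 was at 17.5, 4.59, 9.93, 5.73 and 10.8 CPM in Control, 3.29, 4.06 and 9.76 CPM in UIR and 0.853, 2.49 and 1.48 CPM in UUO. Here UUO did not overlap Control (log2 fold change -2.69, SE 0.51, edgeR adjusted p = 0.00124, background 13.3%), from 41 UMIs in Control and 19 in UUO, of which arterial cells held 38 and 19. Arterial cells were 186 of 677 endothelial cells in Control and 291 of 1958 in UUO, and the part of this makeup was not tested. The whole-endothelium difference did not pass with N1 and N2 only or AN1 and AN2 only as controls (edgeR adjusted p = 0.16 and 0.074).

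Within the Control LOH class nearly all Ptgs2 sat in a handful of cells. LOH cells with at least 1 UMI of Nos1 or Pappa2, genes that mark the macula densa, the sensor of tubular salt, numbered 11 and held 17 of 19 Ptgs2 UMIs, while the other 271 held 2. In UIR 94 such cells held 16 UMIs and 1513 other LOH cells held 33, of which 1 cell held 15. In UUO 17 such cells held 1 and 770 others held 3. The share of LOH cells with such a UMI was 3.90% in Control, 5.85% in UIR and 2.16% in UUO, at a median of 4900, 4748 and 1885 UMIs per cell. In PT cells, which should lack both genes, it was 3 of 6920 in Control (0.0434%), 0 of 1526 in UIR, which allows up to 0.197%, and 0 of 108 in UUO, which allows up to 2.78%, at medians of 3370.5, 2886 and 2400 UMIs. With only 108 PT cells in UUO, that limit cannot tell whether the UUO share in LOH was above that of PT cells. The selected cells were the deeper ones, with medians of 14867 against 4726 UMIs in Control, 23218 against 3760 in UIR and 13968 against 1757 in UUO. With 1 UMI as the criterion, depth and cell identity cannot be told apart, and the selected cells are neither called macula densa nor compared between the groups. In the whole LOH class the level was 11.2, 0, 0, 27.5 and 8.17 CPM in Control, 1.77, 4.896 and 1.49 CPM in UIR and 0.417, 0.354 and 1.65 CPM in UUO, too few counts for a test.

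In UUO most Ptgs2 was in neutrophils, the first immune cells to reach injured tissue. They held 61 of the 119 UMIs (51.3%), at 96.9, 26.5 and 82.4 CPM. Control had 4 neutrophils and no pool. The 1 UIR library with enough neutrophils held 176 CPM from 7 UMIs, and no difference was tested. Macrophages held 2 Ptgs2 UMIs of 1283113 in Control, 30 of 11477107 in UIR, a pooled ratio of 1.68 with an exact 95% counting interval of 0.426 to 14.5, and 1 of 14692449 in UUO, a ratio of 0.0437 with one of 7.4e-04 to 0.839. The Psca-high cells had 2.79, 4.41 and 16.4 CPM in UIR and 0.316, 5.07 and 0 CPM in UUO, with overlapping libraries.

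Among the synthases Ptges was a gene of the distal nephron. Its Control levels were 131 ± 28.4 CPM in CNT, 95.6 ± 38.7 in CD-P, 25.5 ± 14.4 in Slc12a3-high, 8.39 ± 5.79 in CD-I and 5.11 ± 8.06 in LOH cells. CNT overlapped CD-P, and CD-P did not overlap Slc12a3-high. In CNT it was at 168, 112, 152, 126 and 98.6 CPM in Control and 167, 244 and 167 CPM in UIR, which did not pass (log2 fold change 0.32, SE 0.17, edgeR adjusted p = 0.234). Slc12a3-high cells overlapped between the groups (log2 fold change 0.49, SE 0.35, edgeR adjusted p = 0.292 in UIR).

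CD-I cells were the class in which Ptges rose. The Control libraries held 7.33, 7.68, 0, 11.2 and 15.8 CPM, UIR 41.6, 53.9 and 58.8 CPM and UUO 30.9, 35.4 and 44.9 CPM. No injured library came down to the Control range (log2 fold change 2.05, SE 0.41, edgeR adjusted p = 4.42e-04 in UIR, background 22.1%, and log2 fold change 1.56, SE 0.43, edgeR adjusted p = 0.00951 in UUO, background 22.7%). These calls rest on how the clusters were drawn: at a clustering resolution of 2 the UIR difference was 0.23 (edgeR adjusted p = 0.70), and the UUO difference turned to -1.16 (0.013). The UUO call was also lost with AN1 and AN2 as the only controls (log2 fold change 1.01, edgeR adjusted p = 0.20). The clusters of CD-I and the CD-P markers in its pools differed between the groups as given above, the CD-I markers themselves were at 8743 to 12630.0 CPM in Control, 4544 to 6964 in UIR and 5517 to 6609.9 in UUO, and library Ctrl had a median of 894.5 UMIs per CD-I cell against 1704 to 5347 in the other controls.

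Ptgds, which makes prostaglandin D2, rose in LOH in both models and in PT in UIR, and passed no test against Control in the other classes tested. In LOH it was at 9.34, 23.2, 10.4, 8.24 and 5.45 CPM in Control, 65.7, 71.6 and 69.1 CPM in UIR and 54.2, 25.9 and 32.1 CPM in UUO. The UIR libraries were above every other library, and the lowest UUO library was just above the highest Control library. Means went from 11.3 ± 6.87 CPM (SD, n = 5) to 68.8 ± 2.98 CPM (SD, n = 3) in UIR (log2 fold change 2.47, SE 0.33, edgeR adjusted p = 1.75e-06, background 31.1%) and 37.4 ± 14.9 CPM (SD, n = 3) in UUO (log2 fold change 1.62, SE 0.38, edgeR adjusted p = 0.00147, background 32.2%). The UUO difference did not pass with a mitochondrial limit of 50% (log2 fold change 0.07, edgeR adjusted p = 0.82), where the UIR value was 0.898, or with N1 and N2 as the only controls (1.10, 0.22). With a limit of 15% the fitted values were 10.7 in UIR and 9.72 in UUO, but there 2 Control libraries with 47 LOH cells remained and held no Ptgds UMI, so these values depend on the prior count of the fit and give no size. UUO was below UIR (log2 fold change -0.85, SE 0.19, edgeR adjusted p = 0.0375, background 0.508%), which did not pass under 13 of 25 alternatives, among them DESeq2 (adjusted p = 0.32) and leaving out UIR1, UIR2, UUO1 or UUO2 (edgeR adjusted p = 0.069 to 0.39), and was -1.30 on the log2 scale without library UUO.

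Psca-high cells, which scored best for LOH and were absent from Control, had the highest Ptgds level of the UUO kidney. They held 197, 98.9 and 178 CPM in UIR and 144, 79.4 and 69.3 CPM in UUO (log2 fold change -0.69, SE 0.29, edgeR adjusted p = 0.864). frTEC, the cells of failed tubular repair, were at 73.6, 248 and 176 CPM in UIR and 30.4, 64.6 and 16.4 CPM in UUO. The frTEC libraries did not overlap, yet the difference did not pass (log2 fold change -2.25, SE 0.53, edgeR adjusted p = 0.0671). One frTEC cluster, with Ptgds among its leading genes although clustered without it, held 374 of 636 cells in UIR and 72 of 238 in UUO. In UIR frTEC held 39.8% of all Ptgds UMIs, LOH 27.4% and Psca-high 18.4%, and in UUO Psca-high held 50.8%.

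In proximal tubule (PT) cells Ptgds rose in UIR from a very low level. The level was 0.436, 0.411, 2.04, 0.436 and 0.501 CPM in Control, 8.78, 13.9 and 12.9 CPM in UIR and 0, 5.502 and 8.88 CPM in UUO, and all 3 UIR libraries lay above every Control library. UIR passed (log2 fold change 4.05, SE 0.36, edgeR adjusted p = 5.67e-08, background 6.42%) from 33 UMIs in Control and 123 in UIR. The size depended on the settings, at 3.07 on the log2 scale with a mitochondrial limit of 50% and 6.18 with a clustering resolution of 2. At that resolution PT held 2605 UIR cells with 973 Ptgds UMIs in place of 1526 with 123. Of these cells 965 were in a shallow cluster, with a median of 866.5 UMIs. At the main resolution a cluster with 998 UIR cells and a median of 883 UMIs scored best for PT but stayed unnamed. Another 132 of the 2605 were in a cluster whose second best name was frTEC, so the border between PT and frTEC also moved with the clustering. UUO, with 108 PT cells and 5 UMIs, did not pass (log2 fold change 3.09, SE 1.07, edgeR adjusted p = 0.156). Free RNA could have added at most 1.34 CPM in a UIR library, and the summed frTEC markers in the PT pools were at 219 to 302 CPM in Control and 579.6 to 869 CPM in UIR, and their part was not tested. Thin limb cells, the highest Control class at 39.6 ± 12.6 CPM (n = 2), were at 38.7 ± 6.57 CPM in UIR and 52.002 ± 1.13 CPM in UUO, and neither passed (log2 fold change -0.06, SE 0.36, edgeR adjusted p = 0.9499 in UIR). In CD-P Ptgds was at 9.09 ± 8.14 CPM in Control, 12.6 ± 8.597 CPM in UIR and 19.6 ± 7.56 CPM in UUO (log2 fold change 1.37, SE 0.59, edgeR adjusted p = 0.0972 in UUO). In Slc12a3-high cells it was at 12.7 ± 8.81, 13.2 ± 8.02 and 33.3 ± 18.1 CPM (log2 fold change 0.96, SE 0.46, edgeR adjusted p = 0.0951 in UUO).

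Ptgis, the prostacyclin synthase, was found mostly in Fibro 2 in Control and in Fibro 1 and Fibro 2 in the models. In Fibro 2, the contractile cells with Acta2, it was at 213, 174 and 187 CPM in UIR and 249, 183 and 251 CPM in UUO (log2 fold change 0.23, SE 0.19, edgeR adjusted p = 0.868). In Fibro 1, the matrix-producing cells with Col1a1 and Dcn, it was at 262, 139.8 and 140.0 CPM in UIR and 130.0, 107 and 107 CPM in UUO (log2 fold change -0.68, SE 0.23, edgeR adjusted p = 0.176). The UUO libraries of Fibro 1 all lay below those of UIR, but the change did not pass. Controls had 3 Fibro 1 and 25 Fibro 2 cells and, with at least 20 cells required, no pool of either, so neither was tested against Control at this setting. frTEC were at 35.8 ± 19.4 CPM in UIR and 48.5 ± 36.8 CPM in UUO, and held 23.5% and 20.8% of all Ptgis UMIs there. Fibro 3, the class closest to pericytes, held 1 Ptgis UMI in UIR (2.15 ± 3.73 CPM) and 0 in UUO.

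Among the receptors, the share of Ptger1 UMIs that lay outside CD-P was larger in the models than in Control. CD-P held 79.0% of its UMIs in Control, 44.1% in UIR and 17.2% in UUO, where Fibro 1 held 39.96%. Within Fibro 1 the level was 53.2, 43.7 and 34.7 CPM in UIR and 60.9, 60.9 and 56.3 CPM in UUO (log2 fold change 0.398, SE 0.22, edgeR adjusted p = 0.538). Fibro 1 cells numbered 3 in Control, 277 in UIR and 340 in UUO, so Fibro 1 had no Control level of Ptger1. The shares follow the number of cells as well as the level per cell. In LOH a single Control UMI stood against 96 in UIR and 31 in UUO, which as pooled ratios are 9.32 for UIR, with an exact 95% interval of 1.63 to 372, and 9.003 for UUO, with one of 1.5 to 367. These intervals cover counting error only.

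Ptger3, the cyclic AMP lowering EP3 receptor, was the LOH gene of the set. Control LOH libraries held 245, 296, 199.9, 222 and 163 CPM, UIR 69.8, 81.2 and 69.6 CPM and UUO 60.5, 57.8 and 93.1 CPM. The lowest Control library was above each injured library, and UIR and UUO overlapped. Ptger3 fell to 73.5 ± 6.68 CPM in UIR (log2 fold change -1.88, SE 0.17, edgeR adjusted p = 2.13e-09) and 70.5 ± 19.7 CPM in UUO (log2 fold change -1.97, SE 0.18, edgeR adjusted p = 2.71e-09) from 225 ± 49.8 CPM. With a mitochondrial limit of 15%, which left a Control mean of 112 CPM, neither passed (log2 fold change -0.66 and -0.76, edgeR adjusted p = 0.24 and 0.18). Psca-high cells were near the injured LOH level (59.2, 67.1 and 57.3 CPM in UIR and 46.2, 58.1 and 69.9 CPM in UUO).

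The LOH class also changed in makeup. One cluster held 85.9% of its Control UMIs, and another 92.7% in UIR and 90.9% in UUO. Its 4 markers, Slc12a1, Umod, Cldn16 and Wfdc15b, were all present, at a summed 19473 to 25800.0 CPM in Control, 14894 to 15692 CPM in UIR and 12303 to 12739 CPM in UUO. The frTEC markers in LOH were at 2056 to 3074, 16580.0 to 20812 and 18101 to 21499 CPM, and the median mitochondrial share was 16.6 to 24.6%, 10.6 to 14.5% and 8.68 to 9.54%. Their part in the LOH results was not tested.

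**Figure D4:**
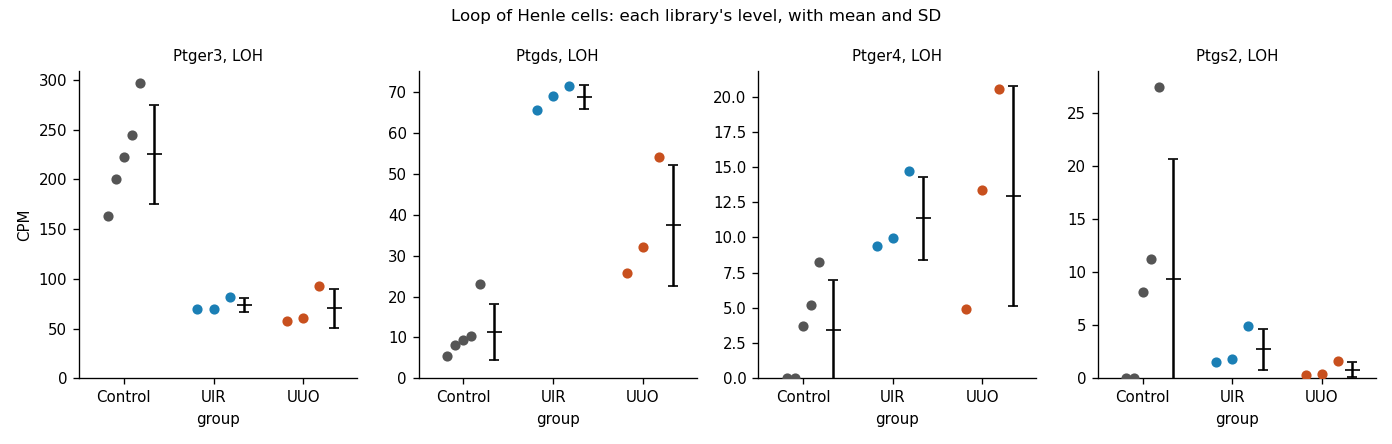
Levels of Ptger3, Ptgds, Ptger4 and Ptgs2 in LOH cells in CPM on linear axes, 1 dot per library, with a short line at the group mean and the SD as the error bar, which stops at 0. Ptger3 is lower and Ptgds higher in both models, Ptger4 overlaps between UUO and Control, and the Ptgs2 libraries of all groups overlap.

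In CD-I cells, whose clusters differed between the groups as given above, Ptger3 rose in UUO. The Control libraries were spread, at 7.33, 61.4, 53.8, 33.5 and 25.2 CPM, with Ctrl lowest. UIR held 77.9, 43.4 and 59.4 CPM and UUO 73.9, 94.2 and 109.9 CPM, and only UUO lay wholly above Control. It passed in UUO (log2 fold change 1.04, SE 0.33, edgeR adjusted p = 0.0217) and not in UIR (log2 fold change 0.42, SE 0.34, edgeR adjusted p = 0.413). The UUO call was lost with doublets kept (log2 fold change 0.28, edgeR adjusted p = 0.46), with N1 and N2 only or AN1 and AN2 only as controls (0.66 and 0.051) and without Ctrl (0.070), AN2 (0.093) or UUO2 (0.076). In Slc12a3-high cells Ptger3 was at 14.4, 2.904, 16.1, 30.9 and 38.8 CPM in Control, 6.61, 6.29 and 2.94 CPM in UIR and 6.54, 4.85 and 9.71 CPM in UUO. The tests passed (log2 fold change -2.32, SE 0.46, edgeR adjusted p = 2.24e-04 in UIR and log2 fold change -2.08, SE 0.47, edgeR adjusted p = 7.21e-04 in UUO) although N1 overlapped the injured libraries, and neither passed with N1 and N2 as the only controls (edgeR adjusted p = 0.22 and 0.28). Fibro 2 held 7.11, 21.5 and 18.7 CPM in UIR and 30.8, 38.3 and 29.6 CPM in UUO (log2 fold change 0.98, SE 0.41, edgeR adjusted p = 0.585).

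Ptger4, the cyclic AMP raising EP4 receptor, was the most widely spread of the receptors. Control levels were 125 ± 28.7 CPM in Fibro 3 (n = 2), 58.2 ± 21.2 in T/NK cells (n = 3), 55.2 ± 10.2 in podocytes (n = 5) and 30.2 ± 11.6 in macrophages (n = 5). Fibro 3 did not overlap T/NK, and each of the next neighbours overlapped. In the models Fibro 3 stayed highest on average but varied widely, at 269, 35.01 and 25.8 CPM in UIR and 181, 165 and 92.7 CPM in UUO.

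None of these leading classes passed a test of Ptger4. In macrophages the UUO libraries, 49.9, 50.2 and 49.6 CPM, were above all of Control (38.5, 42.9, 33.3, 20.6 and 15.7 CPM) without passing (log2 fold change 0.67, SE 0.25, edgeR adjusted p = 0.0936). Podocytes were at 63.2, 59.7, 38.01, 61.4 and 53.7 CPM in Control and 89.5, 76.95 and 74.6 CPM in UUO (log2 fold change 0.45, SE 0.22, edgeR adjusted p = 0.342, background 2.26%), and Fibro 1 at 47.3, 41.2 and 42.4 CPM in UIR and 28.98, 27.8 and 23.6 CPM in UUO (log2 fold change -0.72, SE 0.23, edgeR adjusted p = 0.142). The 1 class in which it passed was LOH in UUO, at 3.74, 0, 5.19, 8.24 and 0 CPM in Control, 9.38, 9.97 and 14.7 CPM in UIR and 13.3, 20.6 and 4.95 CPM in UUO. The libraries overlapped there (log2 fold change 1.65, SE 0.61, edgeR adjusted p = 0.0404) and UIR did not pass (log2 fold change 1.33, SE 0.61, edgeR adjusted p = 0.103). The call, from 7 Control UMIs, was lost under 8 alternatives, among them leaving out Ctrl, N1, N2, AN2 or UUO1 (edgeR adjusted p = 0.057 to 0.19). In Slc12a3-high cells Control had no Ptger4 UMI, and with 3 UMIs over all Control libraries taken as the floor the pooled level was at least 2.21-fold higher in UIR and at least 8.55-fold higher in UUO.

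Most Hpgd UMIs were in macrophages (Macro), but dendritic cells held it as well. In Control 403 macrophages held 825 of its UMIs, and 28 Clec10a/Ccr7 DC, too few in each library for a pool, held 120 (8.50%). Clec10a/Ccr7 DC were at a mean of 32.2 CPM in UIR and 22.4 CPM in UUO. Control macrophages held 532, 686, 422, 762 and 742 CPM, UIR 352, 271 and 266 CPM and UUO 302, 249 and 257 CPM. The highest injured library was below the lowest Control library, and the models overlapped. Hpgd fell from 629 ± 147 to 296 ± 48.7 CPM in UIR (log2 fold change -1.11, SE 0.17, edgeR adjusted p = 3.75e-04, background 5.67%) and 269 ± 28.7 CPM in UUO (log2 fold change -1.32, SE 0.18, edgeR adjusted p = 2.41e-05), and both calls passed under every alternative tried. The 5 macrophage markers C1qa, C1qb, C1qc, Csf1r and Adgre1 summed to 15737 to 18862 CPM in Control, 16217 to 19158 CPM in UIR and 17701 to 20105 CPM in UUO, with overlap. The clusters differed: one held 82.4% of Control macrophage UMIs, 35.6% in UIR and 29.2% in UUO. At a clustering resolution of 2 a macrophage cluster with Hpgd among its leading genes held 244 Control, 223 UIR and 12 UUO cells. A smaller one with Hpgd among its leading genes held 2, 14 and 56. Macrophages had a median of 2774 to 3667 UMIs per cell in Control, 972.5 to 1212 in UIR and 999.5 to 1500.0 in UUO, and the part of cluster and depth was not tested. Macrophages held 79.5% of Hpgd UMIs in UIR and 80.1% in UUO, against 58.4% in Control.

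Hpgd also fell in the collecting duct, in CD-P and in CD-I, where the clusters differed between the groups. In CD-I cells it was at 36.6, 15.4, 11.95, 16.7 and 9.47 CPM in Control, 2.97, 3.85 and 2.24 CPM in UIR and 1.34, 1.51 and 3.095 CPM in UUO, without overlap, from 15, 15 and 7 UMIs. Both tests passed (log2 fold change -2.74, SE 0.61, edgeR adjusted p = 0.00148 in UIR and log2 fold change -3.28, SE 0.68, edgeR adjusted p = 6.58e-04 in UUO) and both were lost with N1 and N2 only or AN1 and AN2 only as controls (edgeR adjusted p from 0.057 to 0.14). In Fibro 1 the UIR libraries held 63.5, 54.9 and 98.9 CPM and UUO 31.9, 25.2 and 23.6 CPM (log2 fold change -1.43, SE 0.26, edgeR adjusted p = 0.00399, background 2.69%). That difference did not pass with doublets kept (log2 fold change -0.91, edgeR adjusted p = 0.18), and the frTEC markers in Fibro 1 differed too, at 5852 to 9872 CPM in UIR and 1084 to 4161 CPM in UUO. One cluster held 171 of the 277 Fibro 1 cells in UIR and 94 of 340 in UUO, and another none and 61. Their part was not tested. Arterial endothelium, second among the classes with a Control pool at 102 ± 95.9 CPM, ranged from 0 to 239 CPM between Control libraries and showed no difference that passed (log2 fold change -0.901, SE 0.45, edgeR adjusted p = 0.339 in UUO). In glomerular endothelium Hpgd had no UMI in Control or UIR and 17 in UUO, where with 3 UMIs as the Control floor it was at least 3.75-fold higher. Monocytes held 339, 189.8 and 183 CPM in UUO, overlapping macrophages.

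**Figure D5:**
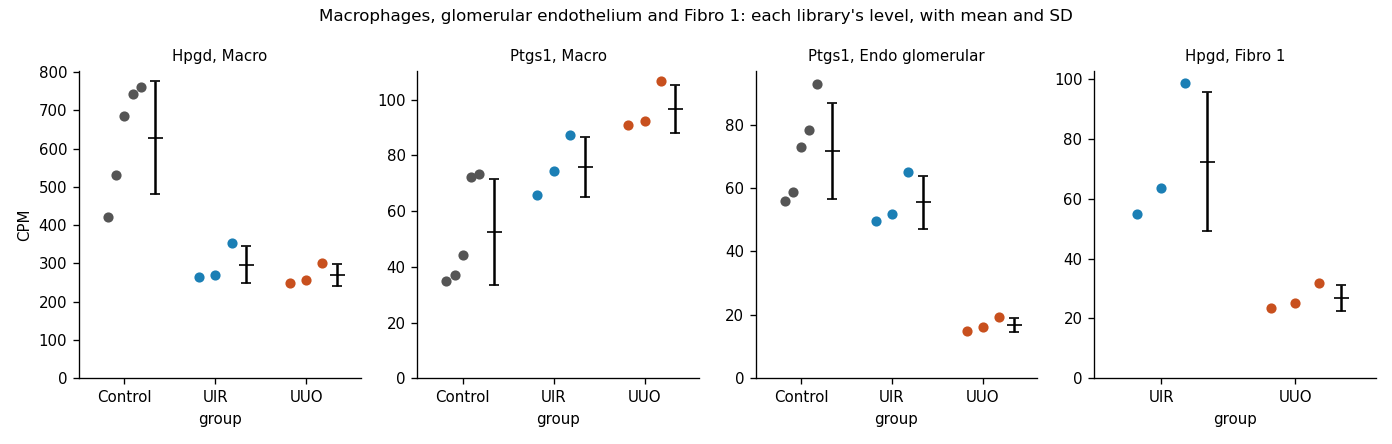
Levels of Hpgd and Ptgs1 in macrophages, Ptgs1 in glomerular endothelium and Hpgd in Fibro 1 in CPM on linear axes, 1 dot per library, with a short line at the group mean and the SD as the error bar, which stops at 0. Macrophage Hpgd is lower in both models, macrophage Ptgs1 is above Control in UUO, glomerular Ptgs1 is low in UUO alone, and Fibro 1, without a Control pool, has less Hpgd in UUO than in UIR.

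The genes whose levels ran most like each of the 9 were found over 53 class-by-group means of log2(CPM + 1), which share libraries and so are not independent. They are descriptions, among 14254 genes considered. Ptgs1 was most like Rab40c and Gata2 (Pearson r = 0.67 for each) and then Ptger1 (0.65), and Ptger1 was most like Col26a1 (0.79). Ptger3 was most like Lrrc66 (0.79) and Pdilt (0.78), Ptgds like the frTEC marker Dcdc2a (0.899), Ptgis like Palm2 (0.89) and Ogn (0.86), a matrix proteoglycan, Ptges like Plppr1 (0.897) and Tfap2a (0.89), Ptger4 like Slc39a6 (0.82), and Hpgd like Cmklr1 (0.84), the chemerin receptor. Ptgs2 was most like Hdc (0.86), the histamine-forming enzyme, and Chac1 (0.83).

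The rest of the pathway was counted from a list of other genes of prostaglandin and leukotriene handling. It held 28 symbols, of which 27 were in the files, the missing Prxl2b being another name of the listed Fam213b. In UIR against Control 9 of 143 tests of a listed gene in a class were higher and 16 lower, in UUO against Control 17 of 134 higher and 19 lower, and in UUO against UIR 2 of 199 higher and 4 lower, where the backgrounds were those given for all classes. The median log2 fold change of the other prostanoid receptors was -0.54 in UIR and -0.61 in UUO, and that of the other synthases 0.0053 and 0.0013. Among the other prostanoid receptors none rose and 5 tests fell in each model, of 12 and 11 tests, and all 5 were of Ptgfr, the prostaglandin F2 alpha receptor. In CD-P Ptgfr fell from 130.0 ± 25.9 CPM in Control to 39.9 ± 9.43 in UIR (log2 fold change -1.76, SE 0.26, edgeR adjusted p = 1.31e-04) and 23.1 ± 13.7 in UUO (log2 fold change -2.75, SE 0.303, edgeR adjusted p = 1.74e-06). The other synthases split, 3 tests up and 3 down of 64 in UIR and 6 up and 5 down of 60 in UUO: Tbxas1, the thromboxane synthase, fell in LOH (log2 fold change -2.13, SE 0.26, edgeR adjusted p = 3.74e-07 in UIR), and Fam213b, which makes prostaglandin F2 alpha, rose in macrophages (log2 fold change 1.24, SE 0.27, edgeR adjusted p = 0.00833 in UIR and log2 fold change 1.33, SE 0.27, edgeR adjusted p = 0.00227 in UUO).

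Of the genes that release arachidonic acid, Pla2g4a, the cytosolic phospholipase, fell in endothelium (log2 fold change -1.25, SE 0.21, edgeR adjusted p = 0.00258 in UIR and log2 fold change -1.96, SE 0.22, edgeR adjusted p = 4.21e-06 in UUO) and in macrophages (log2 fold change -0.795, SE 0.22, edgeR adjusted p = 0.0339 in UIR), and rose in Slc12a3-high cells (log2 fold change 2.08, SE 0.33, edgeR adjusted p = 9.16e-06 in UIR). Slco2a1, the carrier that takes prostaglandins into cells for breakdown, rose in capillary endothelium from 18.4 ± 20.7 CPM in Control to 199.6 ± 7.86 in UIR (log2 fold change 3.58, SE 0.34, edgeR adjusted p = 8.31e-09) and 130.0 ± 14.8 in UUO (log2 fold change 2.895, SE 0.35, edgeR adjusted p = 1.94e-07). One cluster held 201 of the 215 Control capillary cells and 86 of the 745 of UUO, while another held 13 and 311 and the remaining one 1 and 348. The part of cluster was not tested. In Fibro 1 Slco2a1 was lower in UUO than in UIR (log2 fold change -1.43, SE 0.21, edgeR adjusted p = 7.52e-04). Ltc4s, which makes leukotriene C4 in the sister branch of the pathway, rose in CD-I (log2 fold change 3.09, SE 0.67, edgeR adjusted p = 0.00117 in UIR and log2 fold change 3.82, SE 0.62, edgeR adjusted p = 3.03e-05 in UUO) and in macrophages in UUO (log2 fold change 2.75, SE 0.44, edgeR adjusted p = 2.13e-04). In CD-I the Ltc4s rise rested on 3 UMIs in Control against 181 in UIR and 212 in UUO, beside backgrounds of 22.1% and 22.7%. The clusters of CD-I differed between the groups as given above, and their part was not tested. In macrophages it rested on 8 UMIs in Control and 659 in UUO (background 9.71%). Alternative settings are not given for these other pathway genes.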

How the data were processed

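Mouse kidney cell suspensions had been prepared with a cold active protease and sequenced with 10x Chromium 3' chemistry in 11 libraries, taken as separate mice (5 Control, 3 UIR, 3 UUO). The files deposited by the authors hold unnormalized UMI counts of all barcodes, aligned to mm10 (GRCm38) with Cell Ranger 3.1.0 per the processing notes, while the study's methods name a later version of that tool. Each deposited library holds 91920461 to 110914244 UMIs in Control, 82522753 to 117043590 in UIR and 49503312 to 60918546 in UUO. Background removal and doublet calls described in the study are not part of these counts, and no deposited cell annotation was used.

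Cells were called from the raw counts against the empty-droplet profile. Of 86531 called barcodes, 40587 were kept with at most 30% mitochondrial and 5% hemoglobin UMIs, at least 200 genes and the 7.5% most doublet-like barcodes of each library removed. Counts were scaled to 10000 per cell, and cells were clustered without the 9 genes on 2000 variable genes and 40 principal components (30 within a compartment, 20 within a split class) with 20 neighbors by the Leiden method at resolution 1. Clusters were named from fixed markers. The limits for naming were set once the files could be read, so classes are rebuilt ones and may differ from those of the study.

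Counts were summed per library and class with at least 20 cells and tested over all genes with edgeR 4.0.16 (R 4.3.3) by filterByExpr, TMM and the quasi-likelihood test, 3 groups in 1 model, and p-values were adjusted by Benjamini-Hochberg within each class and contrast. The fit was tested on simulated data first. DESeq2 1.42.0 served as an alternative, beside other filters, mitochondrial limits, doublets kept, clustering resolution, control subsets and left-out libraries. Free RNA was bounded from the empty droplets. The highest possible share was over 10% in 22 of 168 pools (median 3.22%). Intervals cover counting error only. Promoters came from RefSeq tables, which held 7 of the 9 genes.

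The members and all lists were chosen with earlier results of these data known. All 9 members were measured in every class with a pool and are shown in the plot of mean levels, and the text gives part of these values. Of the other pathway genes that passed, those reaching 20 CPM in either group were eligible to be named, at most 5 per contrast and compartment.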

Additional observations from a re-analysis of the deposited data

Results flagged for a closer look

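In 3 of 29 Control sets of a gene and class, with 5 libraries each, 1 library stood apart from the rest of its group, where chance gives about 1 in 20. These were Ptgds in LOH in library N1 (23.2 CPM), Ptges in CD-P in library Ctrl (163 CPM) and Hpgd in CD-I in library Ctrl (36.6 CPM).

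In 5 cases the response to UUO differed from that to UIR by the test of the difference itself. On the log2 scale it was -0.85 for Ptgds in LOH, -2.26 for Ptger1 in CD-P, -3.20 for Ptgs1 in CD-I, -0.74 for Ptgs1 in CD-P and -1.71 for Ptgs1 in glomerular endothelium.

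In UUO against Control 2 genes moved in opposite directions in different classes, and that difference between classes was not tested. Ptger3 was at a log2 fold change of 1.04 in CD-I and -1.97 in LOH. Ptgs1 was at 0.75 in macrophages, -1.71 in CD-P, -2.55 in Slc12a3-high cells and -2.13 in glomerular endothelium.

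Cells in clusters without a name, which enter no comparison, also held members above every Control library. Ptgds averaged 25.9 CPM in such cells in UIR (18.6 to 30.4 CPM, Control 0 to 4.72 CPM), and Ptger4 averaged 31.02 CPM in UUO (27.001 to 33.1 CPM, Control 5.13 to 16.2 CPM).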

How the results depend on the processing

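The number of tests that passed depended on the settings more than their direction did. UIR against Control gave 12 calls, and 4 with a mitochondrial limit of 15%, where only 18 tests remained. UUO against Control gave 14, and 24 without a filter on low counts (93 tests), 4 with the 15% limit (17 tests) and 9 with N1 and N2 as the only controls. UUO against UIR gave 5, and 17 without the filter (145 tests), 8 with a mitochondrial limit of 50% and 2 with doublets kept. Leaving out 1 library gave 10 to 13, 12 to 17 and 3 to 11 calls, the last with 3 without UIR1, UIR2 or UUO2 and 11 without the unnumbered library UIR. The replicate block gave 11 calls in UUO against UIR (3 higher, 8 lower, 4 shared with the 5). Correlations of same-numbered libraries in LOH, macrophages, endothelium and CD-P ranged from -0.232 to 0.197. The unnumbered libraries UIR and UUO, given the same number as a name only, correlated at 0.144 to 0.348 in all 4 classes. The differently numbered UIR2 and UUO1 correlated at 0.144 to 0.355. With 3 libraries per model these correlations cannot tell whether libraries were paired. Of 34 called log2 fold changes 12 passed under every alternative that gave a value, and 22 were lost under 1 or more. Of 767 alternative values 692 kept their direction and passed, 74 kept it but no longer passed, and 1 reversed. The reversed value was that of Ptges in CD-I in UUO, at -1.16 with resolution 2. The cause was not tested. With the 15% limit, CD-P, CD-I, CNT and Slc12a3-high Ptgs1 gave no value against Control. Chosen after seeing the data, a fit of UIR and UUO alone gave 5 calls in UUO against UIR, and keeping Psca-high cells in LOH gave 13, 15 and 4. Each set of Control labels held controls only, so no comparison within a set was possible.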
